A study of Mus musculus with 24 samples.

Results

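The comparison described here is the last day of a 3-day ozone exposure in mice without TNF receptors: lungs taken after 72 h of O3 against lungs taken after 48 h. The 3 arrays whose labels give Tnfr-/- mice and 72 h of O3 were set directly against the 3 labelled Tnfr-/- and 48 h, so 6 of the 24 arrays of the series made up the contrast. No air array is part of that difference, but all 24 arrays shared the normalization and the estimate of spread behind its standard errors and p values. Each array held total lung RNA of a separate male mouse of 6 to 8 weeks. Both groups carried targeted disruptions of Tnfrsf1a and Tnfrsf1b (B6.129S-Tnfrsf1a tm1Imx Tnfrsf1b tm1Imx/J), are therefore without the receptors TNFR1 and TNFR2 in every cell, and breathed 0.3 ppm O3 without interruption. Tnfr-/- mice in filtered air or after 24 h of O3, and wild-type Tnfr+/+ mice (C57BL/6J) after 48 and 72 h of O3, 3 arrays each, are given beside the step for orientation. The wild types were C57BL/6J mice bought as a line of their own, so the disrupted genes and other genomic differences between the lines cannot be told apart. In whole lung, fewer cells of a type and less RNA per cell cannot be told apart either, and this holds for every value below.

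TNF is a cytokine of macrophages and other cells that acts through TNFR1 and TNFR2 and drives, among other things, NF-kB target genes in inflamed tissue. Inhaled O3 injures the epithelium of the terminal airways and the alveoli next to them, and the surviving epithelial cells, above all club cells and alveolar type 2 cells, divide to replace what was lost. A dividing cell first copies its DNA, with helicase, polymerase and nucleotide synthesis genes at their peak, and then turns on the genes of the G2 and M phases, which build the spindle, hold and release sister chromatids and mark proteins for destruction at the end of mitosis.

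Expression was read as a MAS5 signal, an intensity per probe set on a linear scale that the authors had scaled to a common level on each array. After quantile normalization, values are given as normalized signal, steps as the difference of mean log2 signal at 72 h minus 48 h, and errors as SD of 3 arrays or standard error of the fit. The 6 arrays had median signals of 224 to 239, 3'/5' ratios of the Gapdh controls (a sign of RNA quality) of 0.863 to 1.13, and a mean correlation of 0.941 to 0.946 with the other 23 arrays, which is near the top of the 0.909 to 0.947 over all arrays. Any 2 arrays of the same group correlated at 0.948 to 0.963, and an array at 48 h with an array at 72 h at 0.951 to 0.962, so the time groups lay no further apart than the mice within them. Markers of lung were at high signal at both times, among them Sftpc, a surfactant protein of alveolar type 2 cells (group means 31150 and 29890), Scgb1a1, the secretoglobin of club cells (27480 and 28390), and Ager of alveolar type 1 cells (9409 and 10310). The 3 probe sets of the disrupted genes had steps of 0.03 (Tnfrsf1a), 0.07 and 0.21 (Tnfrsf1b), each with an adjusted p of 0.999 in limma. Since it is not known whether they detect sequence inside or outside the disrupted exons, they are no check of genotype. The wild-type array Tnfr+/+ O3 72 h replicate 1 stood apart from the others, with a mean correlation of 0.909. Its Gapdh 3'/5' ratio was 4.04, where no other array of the series exceeded 1.73, and its actin ratio was 1.16. Some values that rest on it are also given without it. Wild-type values and differences between the genotypes that carry no such note include it.

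A single probe set of 20537 passed the test, and it belonged to Sgo1, the shugoshin that protects the cohesin between sister centromeres until they part in mitosis. Its probe set read 24.4, 28.4 and 26.8 on the arrays at 48 h and 143, 162 and 93.0 on those at 72 h. All 3 later arrays lay above all 3 earlier ones, and the earlier ones were near the means in air (23.04) and at 24 h (20.5). Sgo1 rose by 2.28 on the log2 scale, or 4.87-fold (standard error 0.32, limma adjusted p = 0.018). Even at 72 h its mean of 133 was below 273, the median signal of all probe sets kept, and Sgo1 was therefore named after its values were seen. The call ended when any 1 of the arrays at 48 h, or replicate 1 or 2 at 72 h, was left out (adjusted p up to 0.26), and held without replicate 3 at 72 h. It also ended when the 6 arrays were fitted alone (adjusted p = 0.19 in limma), and without the wild-type array that stood apart the adjusted p was 2e-04. The share of probe sets called higher was 0.00487%, and none was called lower by limma (0%). By the methods' t-test after Benjamini-Hochberg adjustment no probe set was called in either direction.

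Without adjustment, at a p under 0.01, 120 probe sets were higher at 72 h (0.584%) and 119 lower (0.579%), and at a p under 0.05, 577 were higher (2.81%) and 523 lower (2.55%). The median step over all 11597 genes, with 1 probe set for each gene, was -0.00051. Since nothing but Sgo1 passed the adjusted threshold, the genes below are described by their values, and higher or lower refers to their means on these 6 arrays. Just outside the threshold, and also named after their values were seen, were Fkbp4, Cdh3 and Adm. Fkbp4, which encodes an immunophilin that works with Hsp90, read 146, 138 and 144 at 48 h and 77.1, 57.4 and 57.3 at 72 h (log2 step -1.17, adjusted p = 0.0502 in limma), but its other probe set had a step of 0.34 the opposite way. Cdh3, the epithelial adhesion protein P-cadherin, read 31.2, 46.5 and 33.5 and then 98.5, 111 and 130 (1.62, adjusted p = 0.0924). Adm, the vasodilator peptide adrenomedullin, read 222, 129 and 88.4 and then 53.8, 17.9 and 10.2 (-2.67, adjusted p = 0.0924). In none of these 3 did the arrays of the time groups overlap, as was the case for 13.3% of all probe sets.

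**Figure D1:**
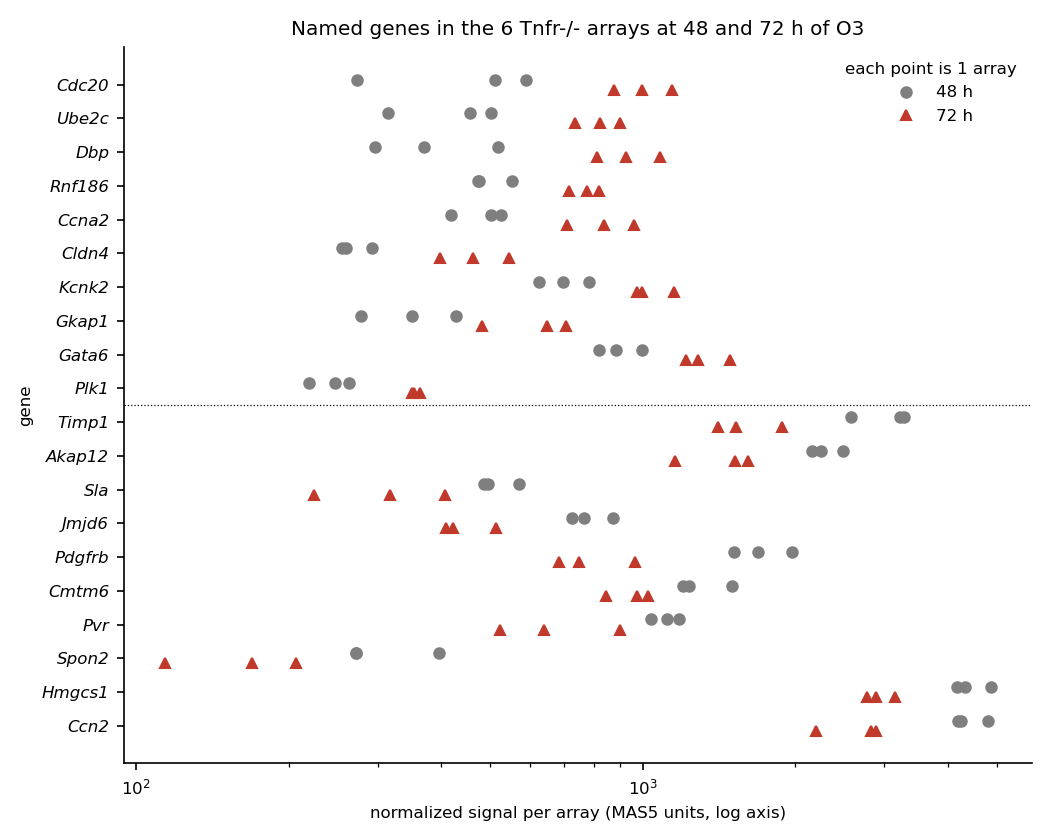
Normalized signal (x axis, MAS5 units on a log axis) of the 20 genes named by rule (y axis) on each of the 6 Tnfr-/- arrays, grey circles for 48 h and red triangles for 72 h of O3. The 10 genes above the dotted line were higher at 72 h and the 10 below it lower; groups that do not overlap were a condition of the choice, and all 20 had an adjusted p of 0.108 or more.

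Genes of mitosis and cell division were higher at 72 h than at 48 h in nearly every measured member. Of the 10 genes named by rule as higher, Cdc20, Ube2c, Ccna2 and Plk1 belong to this group. Cdc20, which switches on the ubiquitin ligase that ends metaphase, read 589, 512 and 273 at 48 h and 1141, 998 and 879 at 72 h, a step of 1.20 (standard error 0.22, limma adjusted p = 0.108). Ube2c, the ubiquitin-conjugating enzyme that serves the same ligase, read 457, 502 and 314 and then 823, 904 and 735, a step of 0.98 (0.18, adjusted p = 0.108). In both genes the lowest array at 72 h was well above the highest at 48 h, while replicate 3 at 48 h was the lowest array of its group. Means in air (212 for Cdc20, 156 for Ube2c) and at 24 h (192 and 112) were lower than at 48 h. The other probe sets of Cdc20 had steps of 0.84 and 0.93.

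Further members of the list are given by their role. Of the cyclins and their kinase, Ccna2 (cyclin A2, of S phase and G2) read 502, 526 and 419 and then 710, 838 and 960, a step of 0.79 (adjusted p = 0.459 in limma). Ccnb2 (cyclin B2) had means of 283 ± 36.6 (SD, n = 3) and 433 ± 22.9, a step of 0.62, and Cdk1, the kinase that both cyclins activate, had means of 450.3 ± 190 and 712 ± 18.5 with a step of 0.74 and a standard error of 0.78. The kinases of spindle and centrosome were also higher. Plk1 read 247, 263 and 219 and then 350.3, 354 and 363 (0.55, adjusted p = 0.459), and Aurka read 289, 268 and 233 and then 387, 338 and 478 (0.59, adjusted p = 0.646). Neither gene had an array at 48 h as high as the lowest at 72 h. For Bub1b, a kinase of the spindle checkpoint, the groups overlapped (means 190 and 225, step 0.27). Among genes of the chromosomes themselves, Mki67, the proliferation antigen that coats mitotic chromosomes, read 512, 530 and 410 and then 712, 709 and 680 (0.54), and Birc5 (survivin) had means of 443 and 721 (0.69). Pbk, a mitotic kinase, had means of 407 and 612 (0.58). The motor genes Kif2c and Kif4 went the other way, with steps of -0.30 and -0.26, and Foxm1, a transcription factor for such genes, had a step of 0.10.

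Over the whole list, 38 of 42 genes were measured. At an unadjusted p under 0.05, 17 of the 38 were higher and 0 lower, where 2.98% of all genes were higher and 2.61% lower at that threshold. The median step was 0.52, beside -0.00051 for all genes, with 36 steps above 0 and 2 below. The 3 arrays at 72 h lay above the 3 at 48 h in 28 genes (6.9% of all genes) and below in 1 (7.47%). None of the 38 passed after adjustment over all probe sets. In 36 of the 38, the mean at 48 h exceeded those in air and at 24 h and was itself exceeded at 72 h. Leaving out 1 array at a time, the median stayed between 0.43 and 0.61 and the members higher at an unadjusted p under 0.05 numbered 8 to 19; the count of 8 was reached without replicate 3 at 48 h and also without replicate 3 at 72 h. The list was written with earlier results of these data known, so its direction is described here and not tested.

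Wild-type lungs showed values of the same size over the same day. In Tnfr+/+ arrays the median step of the list was 0.47, and 13 of the 38 genes were higher at an unadjusted p under 0.05 (3.4% of all genes; 4.89% were lower). Without Tnfr+/+ O3 72 h replicate 1 these were 0.47 and 12. There were 10 genes past that p in both genotypes, which is 10 of the 17 in Tnfr-/- and 10 of the 13 in Tnfr+/+ lungs. The difference between the steps, tested as an interaction, was lower in Tnfr-/- lungs at an unadjusted p under 0.05 for 1 gene, Bub1b (-1.34, 95% interval -2.54 to -0.14, unadjusted p = 0.03 in limma), and higher for 0. With each of the 12 arrays of both steps left out in turn, Bub1b stayed under 0.05 in 7 of 12. At that threshold 2.6% of all genes had a higher and 1.91% a lower step in Tnfr-/- lungs, and no probe set passed after adjustment (0%, smallest adjusted p = 0.32 in limma). At unadjusted p values under 0.01 and 0.05, in either direction, the shares of probe sets were 0.818% and 4.71% for the difference and 2.51% and 8.55% for the wild-type step. The intervals leave room for differences in either direction; that of Cdc20 ran from -0.25 to 1.05 and that of Ube2c from -0.45 to 0.61. For Sgo1, outside the list, the wild-type means were 24.4 and 56.3, a step of 1.03, and the steps differed by 1.26 (0.32 to 2.19, unadjusted p = 0.0113, adjusted p = 0.998 in limma). Replicate 1 at 72 h was the highest wild-type array for Sgo1 at 97.4, and without it the difference was 1.74. Sgo1 was picked by its Tnfr-/- step, which is part of that difference.

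**Figure D2:**
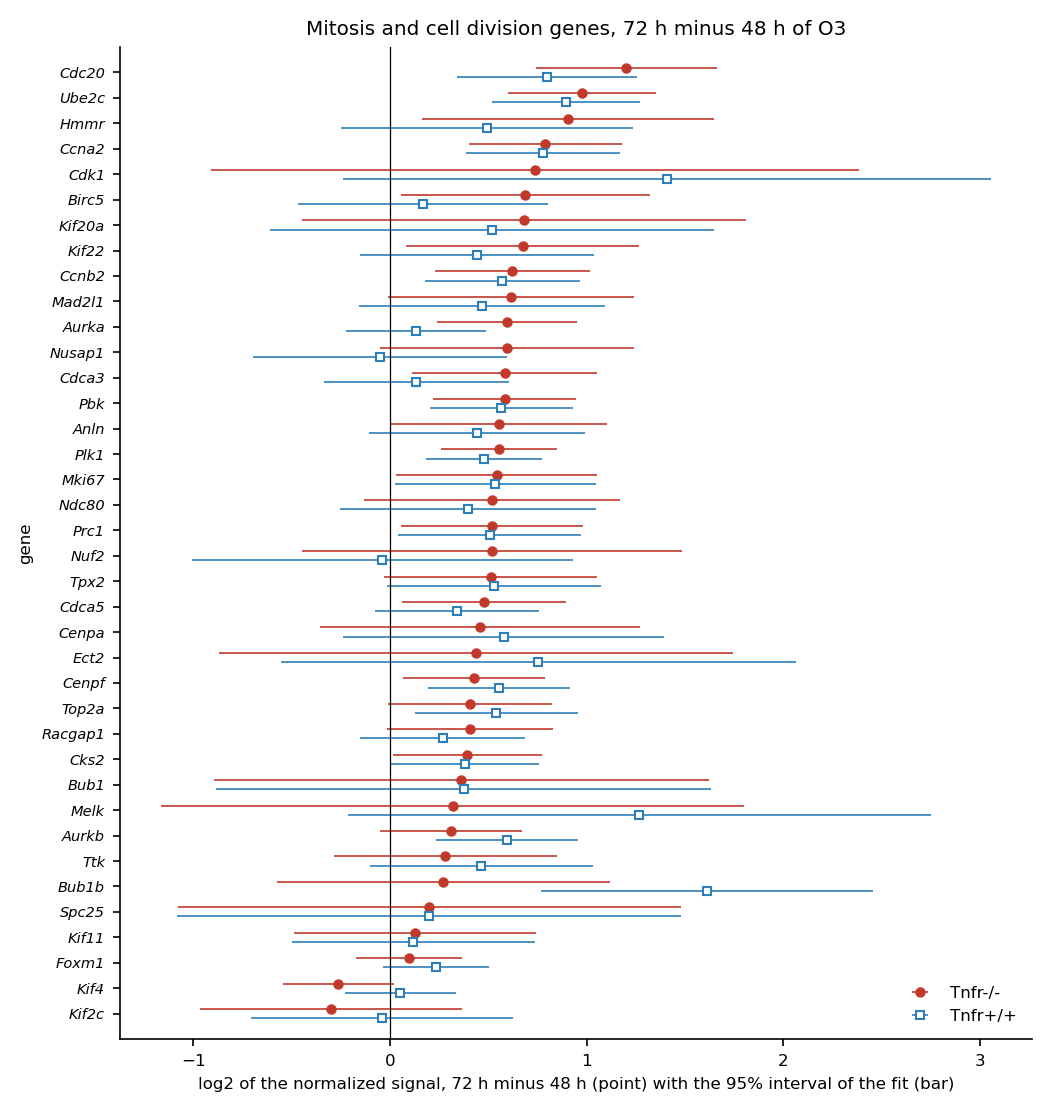
Step in log2 normalized signal from 48 to 72 h of O3 (x axis) for the 38 measured genes of mitosis and cell division (y axis), with the 95% interval of the fit as bars, for Tnfr-/- (red circles) and Tnfr+/+ lungs (blue squares). Points of both genotypes lie mostly to the right of 0, with Tnfr-/- medians of 0.52 against 0.47, and only Bub1b has an interval of the difference that leaves out 0.

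Genes of the G2 and M phases often carry the letters TTTGAA or TTCGAA, known as the cell cycle homology region (CHR), close to their start, together with CCAAT boxes. These letters were searched on both strands in the 250 bases before the start of each gene in RefSeq promoters of GRCm38.p6. Both readings of a motif, such as CCAAT and its reverse complement, count as a match. Of the 38 genes, 32 had an entry. A CHR was found in 12 of the 32 (37.5%), against 17.1% of all 32851 windows. A CCAAT box was found in 23 (71.9%, against 33.8%), and both together in 10 (31.2%, against 6.02%). E2F letters (TTCCCGC or TTGGCGC) were found in 6.25% of the list and 5.62% of all windows. The 150 bases before the start are shown for the 4 measured genes of the list with the smallest p that had an entry, with CHR and CCAAT letters in capitals, since they are the members whose signals are given above. The regions are chr4:118437344-118437493 on the minus strand for Cdc20, chr2:164769779-164769928 on the plus strand for Ube2c, chr7:122159285-122159434 on the plus strand for Plk1 and chr2:172370571-172370720 on the minus strand for Aurka.
Cdc20: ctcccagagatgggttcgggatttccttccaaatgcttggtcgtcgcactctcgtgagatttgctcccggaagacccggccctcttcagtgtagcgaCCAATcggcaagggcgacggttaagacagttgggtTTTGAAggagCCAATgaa
Ube2c: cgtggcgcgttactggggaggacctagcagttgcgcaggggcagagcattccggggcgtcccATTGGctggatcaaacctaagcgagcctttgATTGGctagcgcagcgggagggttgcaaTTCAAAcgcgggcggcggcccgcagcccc
Plk1: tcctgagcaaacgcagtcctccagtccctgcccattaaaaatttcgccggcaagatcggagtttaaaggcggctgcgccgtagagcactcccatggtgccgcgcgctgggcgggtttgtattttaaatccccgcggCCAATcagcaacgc
Aurka: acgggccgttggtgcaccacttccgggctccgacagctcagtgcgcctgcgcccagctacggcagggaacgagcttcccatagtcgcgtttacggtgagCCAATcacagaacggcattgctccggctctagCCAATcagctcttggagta

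Cdc20 and Ube2c, with the largest steps of the 4, have 1 CHR each within 30 bases of the start, beginning 18 and 29 bases before it, and 2 CCAAT boxes in the stretch shown. Plk1 and Aurka have 1 and 2 CCAAT boxes and no CHR letters there. The called gene Sgo1 is shown for comparison (chr17:53689316-53689465, minus strand). It has neither set of letters in these bases but carries CACGTG, the E box, at 80 and 19 bases before the start, here in capitals; the E box was in 6.02% of all windows and in 6.25% of the mitosis list. A match describes letters and is no evidence that a factor binds.
Sgo1: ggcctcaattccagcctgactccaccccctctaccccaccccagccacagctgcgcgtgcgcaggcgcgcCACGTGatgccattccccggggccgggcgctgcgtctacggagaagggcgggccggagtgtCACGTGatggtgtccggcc

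Genes of DNA replication and nucleotide supply, which act before mitosis in the same cycle, had no such step. Of 36 measured members 33 had a higher mean at 48 h than in air, but from 48 to 72 h the median step was -0.01, with 17 above 0 and 19 below. Mcm2 and Mcm6, subunits of the replicative helicase, had means of 549.8 and 888 at 48 h and 484 and 768 at 72 h (steps -0.21 and -0.21, standard errors 0.19 and 0.19). Pcna, the clamp of the polymerases, had means of 4164 and 3980. Rrm2, the ribonucleotide reductase subunit whose protein lasts into G2, read 723, 794 and 525 and then 926, 830.0 and 859, a step of 0.38. Only Orc1, of the origin recognition complex, was higher at an unadjusted p under 0.05 (step 0.56), at low signals of 54.1 to 80.4 and 78.6 to 122. In Tnfr+/+ lungs the median of this list was 0.21, with 6 genes higher and 1 lower at that p, and without replicate 1 at 72 h it was 0.30 with 4 higher. The step was lower than in the wild type at an unadjusted p under 0.05 for 1 gene, Mcm6 (difference -0.58, unadjusted p = 0.042 in limma), and for 3 without that array. Over all genes, 2.98% were higher at that p in the Tnfr-/- step, and 3.4% higher and 4.89% lower in the wild-type step. With all arrays, 1.91% of all genes had a lower step than in the wild type. DNA repair and damage checkpoint genes had a median step of -0.01, with 0 of 25 past that p either way.

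Circadian clock genes were among those with the largest steps in both directions, though 12 of 20 measured members did not pass an unadjusted p of 0.05. In the clock, the activators Arntl (BMAL1), Clock and Npas2 drive their own repressors (the Per and Cry genes), the nuclear receptors Nr1d1 and Nr1d2, which hold Arntl down, and the output factors Dbp, Tef and Hlf. Dbp had the smallest p of the list. It read 296, 518 and 370.5 at 48 h and 812, 927 and 1082 at 72 h, a step of 1.28 (standard error 0.24, adjusted p = 0.108 in limma). Every array at 72 h was above every array at 48 h and near the mean in air of 1001, while the mean at 24 h was 510. Its other probe set had a step of 1.36.

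Both nuclear receptors that hold Arntl down were higher on all 3 later arrays. Nr1d1 read 599.9, 1260 and 1150 and then 1487, 1986 and 1525 (step 0.79), and Nr1d2 read 905, 1159 and 1149 and then 1899.6, 1637 and 2181 (0.83). Per2 read 229.7, 299 and 390.2 and then 431, 537 and 628 (0.81), without overlap. The other repressors did not pass an unadjusted p of 0.05, with steps of -0.29 for Per1, 0.25 for Per3, 0.28 for Cry1 and 0.29 for Cry2. Among the output factors Tef had means of 2572 and 3512 (0.47), and Hlf had a step of 0.28. Of the activators, Arntl read 335, 205 and 261 at 48 h and 179, 195 and 77.1 at 72 h (-0.91), each later array below the lowest earlier one. Npas2 was low and overlapped, with 73.4, 38.8 and 21.9 and then 37.8, 17.5 and 5.46 (-1.37). Rora, a receptor that drives Arntl, had a step of -0.29, and Clock, which is known to vary little over the day, one of -0.09.

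At an unadjusted p under 0.05, 5 of 20 measured clock genes were higher (Dbp, Nr1d1, Per2, Nr1d2 and Tef). Arntl, Npas2 and Rora, 3 of the 20, were lower. Over all genes, 2.98% were higher and 2.61% lower at that p. None of the 20 clock genes passed after adjustment. The median step was 0.25, beside -0.00051 for all genes. Leaving out 1 array at a time, 4 or 5 were higher and 1 to 3 lower; the 1 was reached without replicate 3 at 72 h. By the methods' t-test at a p under 0.05 it was 4 higher and 0 lower. In Tnfr+/+ lungs the median was -0.10, with 0 higher and 1 lower, and without replicate 1 at 72 h it was -0.15 with 0 higher and 3 lower. The step exceeded that of the wild type at an unadjusted p under 0.05 in 4 genes, against 2.6% of all genes. They were Per2 (difference 1.26, 95% interval 0.47 to 2.05, unadjusted p = 0.0036), Tef (0.85, unadjusted p = 0.00602), Dbp (0.89, 0.18 to 1.60, unadjusted p = 0.0172) and Hlf (0.73, unadjusted p = 0.041), each with an adjusted p of 0.998 in limma. With each of the 12 arrays of the 4 groups left out in turn, the unadjusted p stayed under 0.05 in 12 of 12 for Per2 and Tef, 10 of 12 for Dbp and 4 of 12 for Hlf. The hour of day at which the lungs of each group were taken is not given in the sources used here, and its part in these values was not tested.

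**Figure D3:**
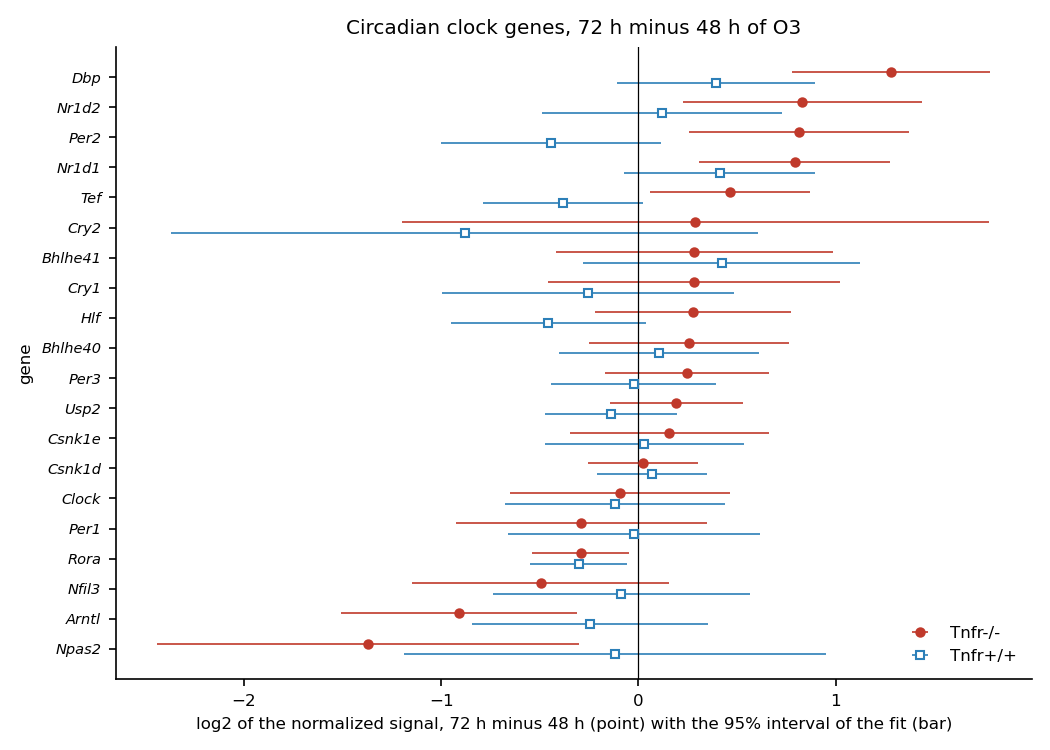
Step in log2 normalized signal from 48 to 72 h of O3 (x axis) for the 20 measured clock genes (y axis), with the 95% interval of the fit, for Tnfr-/- (red circles) and Tnfr+/+ lungs (blue squares). In Tnfr-/- lungs Dbp is at 1.28 at one end and Arntl and Npas2 at -0.91 and -1.37 at the other, while the wild-type points of Per2 (-0.44) and Tef (-0.38) lie on the other side of 0 from those in Tnfr-/- lungs (0.81 and 0.47).

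Of the clock genes with an entry, 4 of 17 (23.5%) had an E box in the 250 bases before the start, against 6.02% of all windows. They were Per1, Cry1, Tef and Bhlhe41, and of the 5 genes that were higher Tef alone is among them. Its 150 bases before the start (chr15:81802523-81802672, plus strand) are shown with the E box in capitals, 127 bases before the start. Its difference between the genotypes stayed at an unadjusted p under 0.05 in 12 of 12 settings with 1 array left out, but was not called after adjustment.
Tef: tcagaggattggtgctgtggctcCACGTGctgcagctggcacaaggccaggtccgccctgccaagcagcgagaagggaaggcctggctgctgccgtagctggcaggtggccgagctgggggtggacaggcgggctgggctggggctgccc

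Cholesterol synthesis genes had lower means at 72 h. This pathway turns acetyl-CoA units into cholesterol through HMG-CoA, squalene and lanosterol, and its genes are driven together by SREBP2. Hmgcs1, which makes HMG-CoA, read 4865, 4168 and 4323 at 48 h and 2778, 2882 and 3149 at 72 h, a step of -0.60 (standard error 0.16, adjusted p = 0.5 in limma), and its other 3 probe sets had steps of -0.38, -0.46 and -0.64. The arrays did not overlap, and at 72 h they were back at the mean in air of 2929 after 5063 at 24 h. Fdft1, the squalene synthase, read 912, 800.4 and 875 and then 510, 559 and 554 (-0.67). Sqle, which oxidizes squalene, read 1411, 1430 and 1465 and then 976, 1034 and 1007 (-0.51), and Cyp51, which acts on lanosterol, read 655, 527 and 621 and then 473, 456 and 348 (-0.51). Those 4 were the members lower at an unadjusted p under 0.05, of 19 measured, with 0 higher (2.61% and 2.98% of all genes). The median step was -0.29, with 18 of 19 steps below 0 and 7 genes lower on all 3 later arrays than on any earlier one (7.47% of all genes). Srebf2 itself, the gene of SREBP2, had means of 1040 and 1067. All 19 had a higher mean at 48 h than in air, and 18 still had at 72 h. In Tnfr+/+ lungs the median was -0.12, and 0.04 without replicate 1 at 72 h; the difference between the genotypes passed an unadjusted p of 0.05 for 0 of 19 genes with that array and for 4, all lower in Tnfr-/- lungs, without it.

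**Figure D4:**
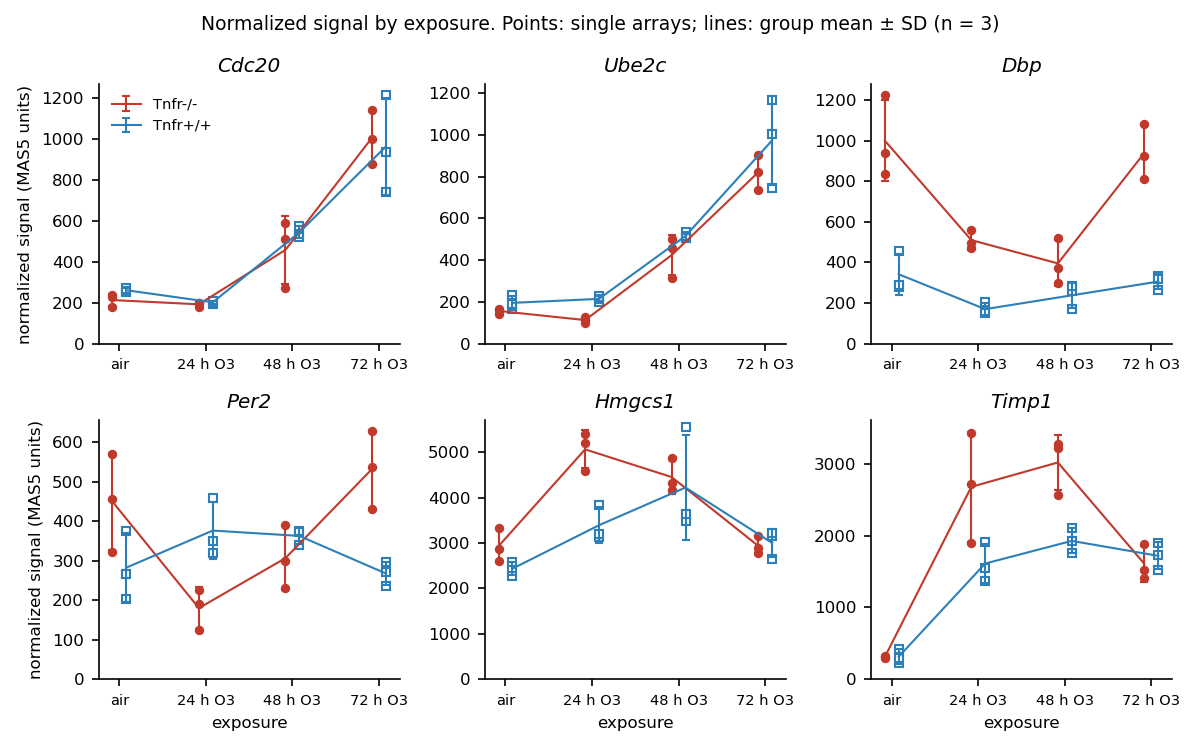
Normalized signal (y axis, MAS5 units) of 6 genes in air and after 24, 48 and 72 h of O3 (x axis), with single arrays as points and group means ± SD (n = 3) as lines, red circles for Tnfr-/- and blue squares for Tnfr+/+ lungs. Between 48 and 72 h the Tnfr-/- means of Cdc20 and Ube2c go from 458 to 1006 and from 424 to 821, that of Dbp from 395 to 940.1 (1001 in air), that of Hmgcs1 from 4452 to 2936, and that of Timp1 from 3024 to 1608 (308 in air).

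Of the genes named by rule as lower, several encode proteins of matrix, vessel wall and adhesion. Timp1, the inhibitor of matrix metalloproteinases, read 2575, 3221 and 3277 at 48 h and 1886, 1411 and 1528 at 72 h, a step of -0.91 (standard error 0.22, adjusted p = 0.459 in limma), without overlap. Ccn2 (connective tissue growth factor) read 4192, 4241 and 4815 and then 2200.1, 2892 and 2825 (-0.75, adjusted p = 0.531). Pdgfrb, the PDGF receptor of pericytes and fibroblasts, read 1692, 1969 and 1517 and then 747, 968 and 682 (-1.12), and its other probe set had a step of -0.44. Akap12, a kinase anchor of vessel and mesenchymal cells, had means of 2295 ± 168 and 1430 ± 242 (-0.69), Spon2, a secreted matrix protein, 313 ± 71.7 and 163 ± 46.7 (-0.96), and Pvr, an adhesion receptor, 1111 ± 72.1 and 688 ± 195 (-0.73). Sla, an adaptor of lymphocyte and myeloid signalling (-0.75), and Jmjd6, a nuclear hydroxylase (-0.82), complete the list with Cmtm6, a partner of PD-L1, whose step of -0.46 was not shared by its other probe set (0.15). Where the wild-type step was set against it, the difference had an unadjusted p under 0.05 in limma for Cmtm6 (-0.55, unadjusted p = 0.00342) and Akap12 (-0.66, 95% interval -1.17 to -0.15, unadjusted p = 0.0138) with any 1 of the 12 arrays left out, and for Pdgfrb (-0.93, unadjusted p = 0.0303) in 7 of 12 and Timp1 (-0.75, unadjusted p = 0.0291) in 6 of 12. It was also under 0.05 with all arrays for Jmjd6 (-0.62, unadjusted p = 0.0444) and Spon2 (-0.73, unadjusted p = 0.0486), in 4 and 6 of 12. The adjusted p was 0.998 for each of the 6, and the other probe sets of Cmtm6, Pdgfrb and Jmjd6 had differences of 0.33, 0.11 and -0.40. The lower genes were named for small p values in the Tnfr-/- step, which is part of this difference. Small p values for the difference were thus favoured by the choice. At an unadjusted p under 0.05, 1.91% of all genes had a lower step in Tnfr-/- lungs. Over the lists that hold such genes, extracellular matrix and tissue repair had a median step of -0.04 (0 higher and 2 lower of 38 at an unadjusted p under 0.05) and TGF-beta targets -0.10 (0 and 2 of 26). At that p, 2.98% of all genes were higher and 2.61% lower.

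Of the genes named as higher outside the cell cycle and the clock, Cldn4, a tight junction claudin of injured epithelium, read 255, 259 and 292 and then 545, 398 and 463 (0.79, adjusted p = 0.459 in limma). Gata6, a transcription factor of lung epithelium and mesenchyme, read 995.5, 820.0 and 885 and then 1489, 1215 and 1285 (0.56), and its other probe set had a step of 0.44. Both were above the earlier arrays on all 3 later ones. Gkap1, which binds a cGMP-dependent kinase (0.80), Rnf186, a ubiquitin ligase of epithelia (0.63), and Kcnk2, a potassium leak channel (0.57), had means at 48 h of 352, 499 and 701 and at 72 h of 612, 769.7 and 1041. The latter were close to the means in air, which were 636, 829.5 and 929.9. For Gkap1 the wild-type step was -0.12 and the difference 0.93 (95% interval 0.34 to 1.51, unadjusted p = 0.0038), for Gata6 0.03 and 0.53 (0.12 to 0.94, unadjusted p = 0.0149), in limma and with an adjusted p of 0.998; both stayed under 0.05 in 12 of 12 settings, but the other probe set of Gata6 had a difference of 0.04. Gkap1 and Gata6 were named for small p values in the Tnfr-/- step, which favours small p values for the difference. At an unadjusted p under 0.05, 2.6% of all genes had a higher step in Tnfr-/- lungs. Within the list of squamous and keratin genes, 3 of 21 were higher at an unadjusted p under 0.05 (2.98% of all genes). They were Krt18 (means 3984 and 4852), Krt13 (17.8 and 51.8) and Cldn4, and the median of the list was 0.10.

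Several lists of stress and inflammation genes had medians below 0, with members on both sides. Acute phase and inflammatory mediators had a median step of -0.13, with 10 of 28 steps above 0. At an unadjusted p under 0.05, 3 of the 28 were lower and 0 higher. Those were Timp1, Lcn2 (lipocalin 2, which binds bacterial siderophores), which read 5036, 6781 and 4204 and then 4034, 3230 and 3640.5 (-0.53), and Cebpd, a transcription factor of the acute phase, which read 3264, 2856 and 3469 and then 1842, 1824 and 2136 (-0.72). Neither gene overlapped between the times, and the Lcn2 mean of 3634 at 72 h was still above 934 in air. Immediate early genes had a median of -0.22 with 22 of 29 steps below 0 and 3 lower at that p, which were Ccn2, Myc (means 347 and 243) and Klf6 (1870 and 1409). Glucocorticoid-induced genes had a median of -0.20 with 4 lower of 23, among them Errfi1, a brake on EGF receptor signalling (5041 and 3204), and Ddit4, an inhibitor of mTOR (1224 and 696). The other 2 were Lcn2 and Cebpd, which the lists share. Where 2.61% of all genes were lower at that p, the 4 of 23 became 0 without replicate 2 at 72 h, 2 without replicate 1 or 3 at 48 h and 5 without replicate 2 at 48 h or replicate 1 at 72 h, and the 3 of 29 immediate early genes became 1 without replicate 3 at 48 h and 2 without replicate 1 at 48 h or replicate 2 at 72 h.

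NF-kB target genes, the textbook output of the missing receptors, had a median step of -0.03, with 1 of 33 higher (Vcam1, the leukocyte adhesion molecule, means 325 and 423) and 0 lower at an unadjusted p under 0.05. Over all genes, 2.98% were higher and 2.61% lower at that p, so a count of 1 in a list of this size is near the share of all genes. The genes of TNF receptor signaling had a median of 0.03, with 1 of 23 higher at that p, the TNF relative Lta at a low signal (26.2 and 67.2). Chemokines had a median of 0.05 with 1 of 29 lower. That was Ccl17, a ligand of Ccr4, which read 1096, 896 and 1193 and then 776, 684 and 694 (step -0.56), whereas the wild-type step was 0.12 (difference -0.68, 95% interval -1.26 to -0.10, unadjusted p = 0.0233). Heat shock genes had a median of 0.18 with 1 higher of 24, Hspa4l (766 and 1082), and 2 lower. Those 2 were Dnajb1, an HSP40, which read 2408, 2825 and 2845 and then 2285, 1456 and 799.9 (-0.95), and Hspa1a, the inducible HSP70, which read 1137, 2150 and 2663 and then 1410, 803 and 282 (-1.45), whose time groups overlapped. Without replicate 1 at 72 h, 5 heat shock genes were lower, without replicate 3 at 72 h 0 were, and without replicate 2 or 3 at 48 h 1 was. In the unfolded protein response Atf4, its central transcription factor, read 3284, 3793 and 4047 and then 2721, 1990 and 2374 (-0.66); it was the 1 of 26 genes past that p.

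Higher means of interferon response genes at 72 h rested on 1 mouse. The list had a median step of 0.29, with 25 of 31 steps above 0. At an unadjusted p under 0.05, 4 genes were higher (Ifit1, Irgm1, Stat2 and Gbp2), where 2.98% of all genes were. Gbp2, a GTPase induced by interferon gamma, read 503, 496 and 392.1 at 48 h and 612, 477 and 2679 at 72 h, and Irgm1, of a related family, read 481, 348 and 351 and then 449, 513 and 949.8. In both genes replicate 3 at 72 h was far above its group. The arrays at 72 h lay above those at 48 h without overlap in 2 of the 31 genes, where 6.9% of all genes did so. Ifit1 was among them (286, 341 and 412.5, then 514, 414 and 639). Without that array 0 genes were higher and the median was -0.04, while without replicate 1 or 2 at 72 h 7 and 10 were higher. Markers of NK and cytotoxic cells moved with the same array. Their median step was 0.22 with 11 of 14 steps above 0, and -0.05 with 6 above 0 without replicate 3 at 72 h. Without replicate 2 at 72 h, 4 of the 14 were higher at an unadjusted p under 0.05, and their summed signal was 1873 to 2275 at 48 h and 2028 to 3766 at 72 h. The part of these cells in the interferon values was not tested. Genes of antigen presentation by MHC class II had a median of 0.17 with 4 higher and 0 lower of 13, of which H2-Aa, a chain of the class II molecule, read 6435, 7177 and 6781 and then 9859, 8058 and 10523 (0.47, limma adjusted p = 0.459), without overlap. H2-Ab1 had means of 1505 and 2438 (0.68). With 1 of the 6 arrays left out the class II count was 2 to 3 and the median 0.02 to 0.31. Without replicate 3 at 72 h, 2 were higher and 7 of the 13 steps were above 0.

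Genes of xenobiotic metabolism, which in lung are strongest in club cells, had a median near 0 in Tnfr-/- lungs and below 0 in wild-type lungs. The median step was 0.08 in Tnfr-/- lungs, with 3 higher and 3 lower of 31 at an unadjusted p under 0.05, and -0.28 in Tnfr+/+ lungs, with 1 higher and 10 lower (-0.20, 0 and 7 without replicate 1 at 72 h). Leaving out 1 Tnfr-/- array, 1 to 5 were higher and 1 to 3 lower; 1 was higher without replicate 1 or 2 at 48 h or replicate 3 at 72 h, 5 without replicate 3 at 48 h, and 1 was lower without replicate 1 or 3 at 48 h. Over all genes at that p, 2.98% were higher and 2.61% lower in Tnfr-/- lungs, and 3.4% and 4.89% in Tnfr+/+ lungs. The 3 genes lower in Tnfr-/- lungs had steps below 0 in both genotypes. They were the P450 Cyp2d22 (-0.46 in Tnfr-/- and -0.64 in Tnfr+/+ lungs), the monooxygenase Fmo1 (-0.32 and -0.45) and Tiparp, a target of the aryl hydrocarbon receptor (-0.53 and -0.28). The steps of Cyp2b10 and Ces1d had opposite signs in the genotypes. Cyp2b10, a cytochrome P450, read 4172, 4288 and 4694 at 48 h and 5971, 6337 and 5667 at 72 h (0.45), where the wild-type means were 5704 and 4730. Ces1d, a carboxylesterase, read 3929, 3822 and 3740.0 and then 4293, 4567 and 5367 (0.30), where the wild-type means were 4899 and 3759. In both the groups of Tnfr-/- arrays did not overlap. The difference between the genotypes was 0.73 for Cyp2b10 (95% interval 0.26 to 1.20, unadjusted p = 0.00435) and 0.71 for Ces1d (0.30 to 1.11, unadjusted p = 0.0018), with an adjusted p of 0.998 in limma for each, and stayed under 0.05 in 12 of 12 settings. For Cyp2f2, the P450 most typical of club cells, the means were 22240 and 25350 in Tnfr-/- and 25080 and 21650 in Tnfr+/+ lungs, a difference of 0.40 (unadjusted p = 0.0123). In all, 6 genes of the list had a higher and 1 a lower step than in the wild type at that p (2.6% and 1.91% of all genes). Without Tnfr+/+ O3 72 h replicate 1 these were 5 and 1. The lower gene was Cyp1a1 (-1.72 with all arrays), another target of that receptor. The list of club cell markers shares genes with the xenobiotic list. Its wild-type median was -0.28 with 3 of 16 lower (-0.09 and 0 without replicate 1 at 72 h). The median difference between the genotypes was 0.30 with 3 higher, beside 0.37 for the xenobiotic list. Those 3 were Cyp2f2, Cyp2b10 and Ces1d, each in both lists. Club cell markers outside the xenobiotic list had differences from -1.30 (Reg3g) to 0.62 (Bpifa1), with Scgb1a1 at 0.04. None of these unshared markers had an unadjusted p under 0.05 for the difference in limma. The part of club cells in the difference was not tested.

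Marker lists of cell types had medians from -0.39 (T cells) to 0.22 (NK and cytotoxic cells), and their summed signals are set beside the results above. Club cell markers had a median step of 0.05, with Cyp2b10 and Ces1d the 2 of 16 genes past an unadjusted p of 0.05 (1 or 2 leaving out 1 array), and their summed signal was 128200 to 140900 at 48 h and 136000 to 148400 at 72 h. Alveolar type 2 markers had a median of -0.04 with 0 of 17 past that p, and alveolar type 1 markers 0.09 with 2 of 11 higher, Aqp5, a water channel (4149 and 5200), and Vegfa. Those 2 became 0 without replicate 3 at 48 h or replicate 3 at 72 h, and 1 without any other Tnfr-/- array of the step. Over all genes, 2.98% were higher and 2.61% lower at that p. Neutrophil markers had a median of 0.17 with 10 of 13 steps above 0, and 1 higher and 1 lower at that p. The lower one was Lcn2 (5340 and 3634), while S100a8 was at 459 and 519.7 and S100a9 at 430 and 493. Summed neutrophil signals were 7790 to 9599 at 48 h and 6486 to 7766 at 72 h. These sums were lower at 72 h without overlap, and at both times above the 3923 to 4439 in air. Lcn2, with means of 5340 and 3634, was the largest part of them, while 10 of the 13 steps were above 0. The lower sums thus do not show a fall of the neutrophil markers as a group. Alveolar macrophage markers had a median of -0.16 with 1 higher and 1 lower of 17. The lower one was Marco, a scavenger receptor, which read 291, 472 and 246 and then 187, 214 and 223 (-0.64). Summed macrophage signals were 36150 to 37810 at 48 h and 32210 to 34630 at 72 h, and thus did not overlap.

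Most T cell and smooth muscle markers had lower means at 72 h, few of them past an unadjusted p of 0.05. Of 14 T cell markers 13 had steps below 0, with a median of -0.39. At an unadjusted p under 0.05, 3 were lower, where 2.61% of all genes were. Cd3e, a chain of the T cell receptor complex, read 143, 180.2 and 189 and then 47.7, 85.7 and 24.8 (-1.86), Cd3d had means of 52.3 and 23.02 (-1.17) and Cd5 154 and 101 (-0.65). These signals are below the median of all probe sets, none of the 3 named markers was at 0, and the sum over the list was 1933 to 2083 at 48 h and 1511 to 1617 at 72 h, beside 1798 to 2250 in air. All 15 smooth muscle markers had steps below 0, with a median of -0.20 and 1 past that p, Tagln, an actin-binding protein (2370 and 1784); the sum was 17180 to 19870 and then 15000 to 17050. Smooth muscle cells and pericytes share genes with the lower group above, such as Pdgfrb, and the part of these cells in those values was not tested. Cardiac muscle markers, which enter lung samples with the pulmonary veins or attached heart, had a median of -0.05 with 0 of 16 past that p. Of the remaining cell type lists, none had more than 2 members past that p in the Tnfr-/- step.

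**Figure D5:**
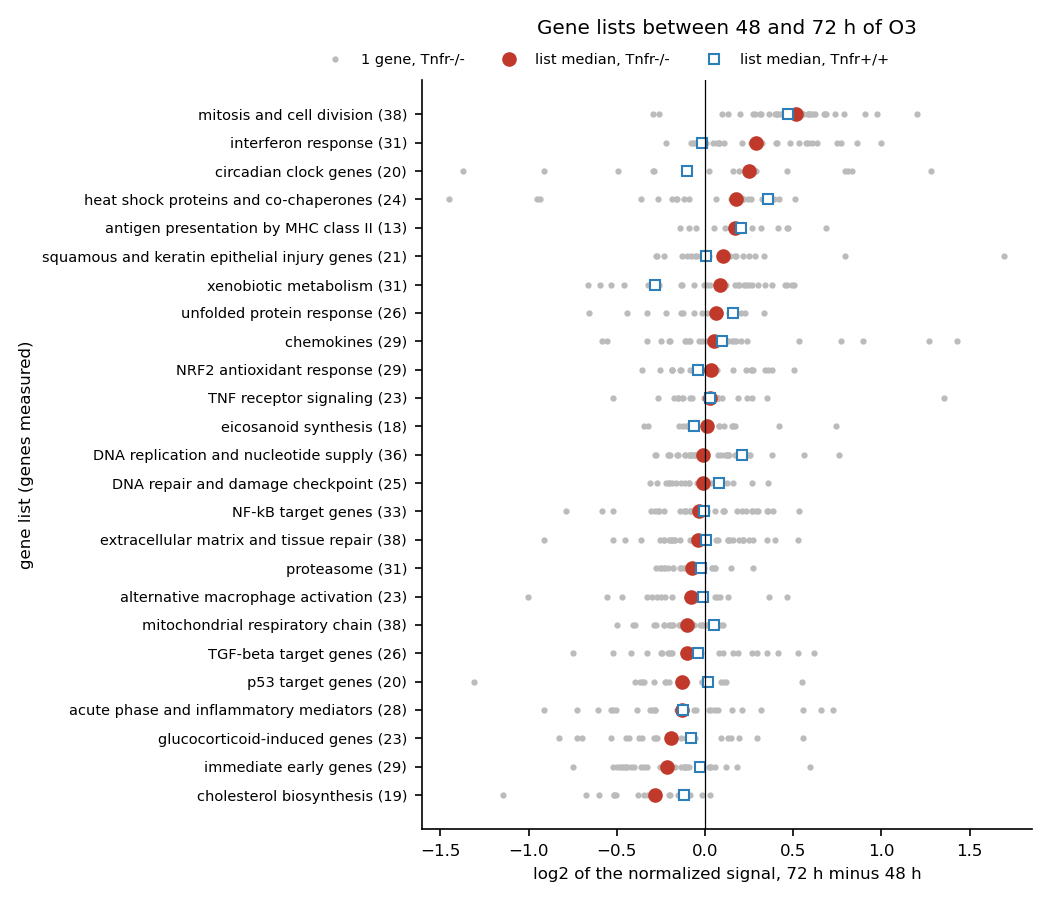
Step in log2 normalized signal from 48 to 72 h of O3 (x axis) for 25 lists of genes of a process (y axis, number measured in parentheses), with single genes in Tnfr-/- lungs as grey points, their median as a red circle and the median in Tnfr+/+ lungs as a blue square. Mitosis is the list farthest to the right in both genotypes (0.52 and 0.47) and cholesterol biosynthesis farthest to the left in Tnfr-/- lungs (-0.29), and 12 of the 25 medians lie within 0.1 of 0.

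Of the process lists not described so far, those of the NRF2 antioxidant response (median 0.03, 3 higher and 1 lower of 29), p53 targets (-0.13, 1 and 1 of 20), eicosanoid synthesis (0.01, 0 and 1 of 18), alternative macrophage activation (-0.08, 0 and 1 of 23), the mitochondrial respiratory chain (-0.10, 0 and 1 of 38) and the proteasome (-0.08, 1 and 0 of 31) had few members past an unadjusted p of 0.05. At that p, 2.98% of all genes were higher and 2.61% lower. The lead gene of the antioxidant list was Gclc, the catalytic subunit of the enzyme that limits glutathione synthesis. It read 3472, 3623 and 4280 at 48 h and 5836, 4438 and 5936 at 72 h, a step of 0.50 (unadjusted p = 0.00526), and the wild-type step was 0.47. The p53 target Phlda3 read 1027, 995.5 and 808 and then 1442, 1243 and 1451 (0.55, unadjusted p = 0.00725), without overlap.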

How the data were processed

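The authors hybridised total lung RNA to Affymetrix MOE430A arrays, and the deposited values are MAS5 intensity per probe set on a linear scale (Affymetrix Expression Console, per the labels), scaled to a common level (trimmed mean 501). The filter, quantile normalization and division by wild-type air of the study's methods are not in them. Here, 22644 probe sets on 24 arrays were quantile normalized, set to a floor of 1 and taken to log2. Control probe sets (64) were left out, and those that reached an array's 20th percentile on 1 array or more stayed in (20537). A mean for each of 8 groups was fitted with limma 3.58.1 in R 4.3.3 (16 residual and 2.38 prior degrees of freedom), with Benjamini-Hochberg adjustment over all probe sets kept and a threshold of 0.05. Of the probe sets, 20338 had 1 gene in the array's annotation, 691 several and 1551 were not listed. No array pair was identical. The number of arrays limits precision. The fit was tested on simulated data.

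Named genes were the 10 with the smallest p in each direction whose time groups did not overlap and whose higher mean reached the median signal, then up to 4 members of each list described by p, with exceptions stated. Further list members are named for their role. Members and lists were chosen with earlier results of these data known. Promoters are RefSeq sequences of GRCm38.p6. Alternatives covered normalization, filter, floor, arrays fitted, weights, variance prior, replicate block, each array left out, an ordinary t-test, thresholds and probe set choice.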

Additional observations from a re-analysis of the deposited data

How the results depend on the processing

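Sgo1 was higher at 72 h in every setting whose filter kept it and was the 1 probe set called higher on deposited values, after cyclic loess, unfiltered, with a floor of 16, with the 12 arrays of the genotype and without Tnfr+/+ O3 72 h replicate 1. With the 6 arrays of the comparison alone the 1 called higher was Saa4, an acute phase protein, and Sgo1 was not called. The number called higher was 0 with the stricter filter, with trend and robust variance and by the ordinary t-test, 3 with array weights, and 0 to 2 leaving out 1 array at a time. The number called lower, 0 as reported, was 1 with cyclic loess, with the arrays of the comparison alone and with the 12 arrays of the genotype, 2 with a floor of 16, 3 with array weights and 0 to 2 leaving out 1 array. At unadjusted p values under 0.01 and 0.05 the numbers were 120 and 577 higher and 119 and 523 lower. At a p under 0.01, higher calls were 216 with array weights and 98 to 160 leaving out 1 array, and lower calls 191 with the 12 arrays, 256 with array weights, 208 by the t-test and 89 to 155 leaving out 1 array.

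The mitosis genes higher at an unadjusted p under 0.05 (17) numbered 8 to 19 leaving out 1 array.

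The wild-type step, 0 called, had 0 to 10 leaving out 1 array, 1 with the stricter filter or array weights, 2 with trend and robust variance, 515 at an unadjusted p under 0.01 and 1756 under 0.05; the 515 became 169 with its arrays alone, 276 with the 12 arrays and 182 by the t-test. The difference of steps, 0 called, had 0 to 1 leaving out 1 array, 168 under 0.01 and 968 under 0.05; the 168 became 111 with the stricter filter and 139 to 270 leaving out 1 array. Same-numbered Tnfr-/- arrays correlated at 0.054, 0.033 and 0.042 in their deviations, and differently numbered ones at -0.036 to -0.0047. In Tnfr+/+ lungs same-numbered arrays correlated at -0.13, 0.028 and -0.18, and differently numbered ones at -0.11 to 0.2. Arrays were fitted as unpaired, and whether the replicate numbers pair mice is not known. With the replicate block 1 probe set was called lower (Adm), 1 in the wild-type step and 1 in the difference.

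Of 394 values of named genes under an alternative, 384 kept direction and side of the threshold, 8 lost the call, 1 gained it, and 1 reversed, Cmtm6 on its other probe set (0.15). The cause was not tested. With 3 mice a group, a step that no test called may still be present.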
